A study of Homo sapiens with 6 samples.

Results

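EGR1, EGR2, EGR3, IER2, IER3, IER5, PHLDA1, ZFP36, ZFP36L1 and ZFP36L2 belong to the early-response genes, a set switched on within minutes to hours when a cell meets a growth factor, phorbol ester or inflammatory signal. They were followed by name through 3 arrays of unstimulated THP-1 cells and 3 arrays of PMA-differentiated THP-1 cells. THP-1 is a human line of monocytic leukaemia, and PMA is a phorbol ester, a stand-in for diacylglycerol that turns on protein kinase C. The differentiated group was kept in PMA at 200 nM for 3 days and then in medium free of it for a further 3 days, so its RNA was taken long after the first hours of the response. Both groups are the same line, and the comparison asks how the macrophage-like state differs from the unstimulated one. Of the 10 genes named, 9 were measured, out of 18417 genes on the arrays with a probe set of a single gene symbol. EGR2 was carried by no named probe set and was not analysed here. Values are log2 values as the authors deposited them, 1 per probe set and array, and a difference of 1 is a 2-fold change. Labels do not say that the replicates were separate cultures, so each p-value speaks only for the variation among these 6 arrays, which could be purely technical.

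Early-response genes are induced without new protein synthesis, largely by ERK signals that reach the serum response factor SRF and its ELK partners on DNA. The EGR proteins are zinc finger transcription factors that pass the signal on and are held back by the NAB corepressors. The ZFP36 proteins work at the other end of the response: they bind AU-rich elements in short-lived mRNAs, many of them for cytokines, and bring in the CCR4-NOT complex, which removes the poly(A) tail.

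PMA-differentiated cells held much more PHLDA1, IER3 and ZFP36L1 mRNA than unstimulated cells and less ZFP36 and ZFP36L2 mRNA, while the EGR factors, IER2 and IER5 did not pass the test. Of the 9 measured genes, 3 rose and 2 fell at an adjusted p of 0.05 in limma, where 26.4% of all genes passed, 13.2% in each direction. The 5 genes that passed changed at least 2-fold, as 8.37% of all genes did, and their groups did not overlap, as for 41.2% of all genes. The median log2 fold change of the 9 genes was −0.08, against −0.03 for all genes. The cells were measured in bulk, so fewer cells that make a transcript and less of it per cell cannot be told apart.

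The arrays differed in how closely they followed their group. The unstimulated replicate 1 array was more than 1 below the mean of the other unstimulated arrays for 0.776% of all genes, and the PMA replicate 3 array was so against its own group for 1.15%. The other 4 arrays had such a fall for at most 0.478% of genes. Array medians over all probe sets lay between 6.10 and 6.25. The 8 measured myelomonocytic markers averaged 9.56 to 9.89 across the arrays with none below the lower quartile of its array, an average in which 3 rose and 3 fell. The lipopolysaccharide co-receptor CD14 (2.46 ± 0.53), the integrin chain ITGAM (2.01 ± 0.12) and the M-CSF receptor CSF1R (1.94 ± 0.18) rose (log2 fold change ± standard error, n = 3 per group), and lysozyme LYZ (−2.76 ± 0.13) fell furthest. CD14 read 7.51 on unstimulated replicate 1 against 9.67 and 9.65 on the other unstimulated arrays, and its difference was 1.74 ± 0.11 without that array. CD68 (−0.24 ± 0.10, adjusted p = 0.136) and the lineage factor SPI1 (0.20 ± 0.10, 0.202) did not pass. Averages for T and NK, B, erythroid, and epithelial and fibroblast markers lay between 4.83 and 5.87. Of those 19 markers of other cells, NCAM1 (1.22 ± 0.13) rose and kept its call without any single array. PDGFRB (0.52 ± 0.14) rose and CD79A (−0.36 ± 0.11) fell, but each kept its call in only 1 of the 6 fits that left out an array. Their part in the results below was not tested.

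**Figure D1:**
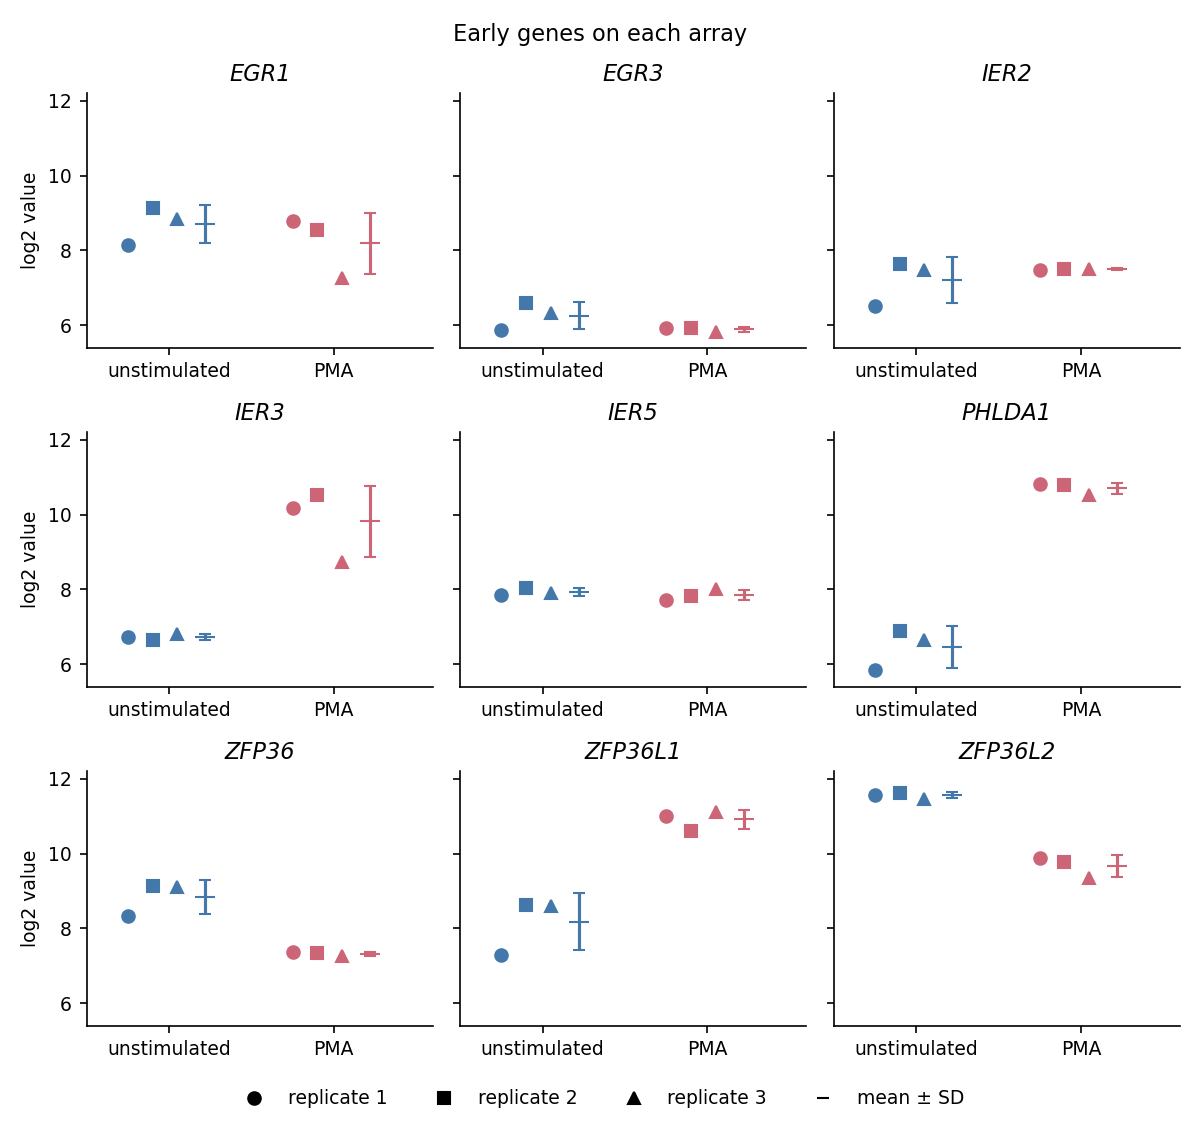
Log2 value (y axis) of each measured gene on the 3 unstimulated and 3 PMA arrays. Points are arrays, with the marker shape giving the replicate number, and the bar beside each group is its mean ± SD. PHLDA1, IER3 and ZFP36L1 lie higher and ZFP36 and ZFP36L2 lower on every PMA array, while EGR1, EGR3, IER2 and IER5 overlap.

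EGR1, the best known of the EGR factors, read 8.14, 9.14 and 8.84 on unstimulated replicates 1, 2 and 3 and 8.78, 8.54 and 7.26 on PMA replicates 1, 2 and 3. The groups overlapped, with the highest value on an unstimulated array and the lowest on PMA replicate 3. Its log2 fold change, PMA minus unstimulated, was −0.52 ± 0.41 (standard error, n = 3 arrays per group; adjusted p = 0.426), with a 95% interval of −1.47 to 0.43. That interval holds a fall of over 2-fold as well as a small rise, so these arrays did not settle the direction. The estimate moved with single arrays, to −0.05 without PMA replicate 3 and −0.80 without unstimulated replicate 1 (adjusted p = 0.921 and 0.224).

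The stretch of DNA before the EGR1 start is shown because it holds the elements through which this class is known to be switched on. RefSeq windows of 250 bases before a start were used for 7 of the 10 genes (10 windows, GRCh38.p14). EGR3, IER3 and ZFP36L2 had no window in the search. Both strands were searched for the CArG box, to which SRF binds, and the cAMP response element TGACGTCA. The AP-1 site TGANTCA and the EGR site GCGNGGGCG were searched for as well. CArG boxes were found in the EGR1 window, at −105 to −96 and −83 to −74 from the start, and once in a window of EGR2, and 1.16% of all 35116 windows hold one. The EGR1 window also had 1 EGR site, at −198 to −190, a motif in 8.41% of all windows. Positions −140 to −51 of EGR1 (chr5:138465339-138465428, plus strand) are given 5′ to 3′ with the CArG boxes in capitals.
EGR1: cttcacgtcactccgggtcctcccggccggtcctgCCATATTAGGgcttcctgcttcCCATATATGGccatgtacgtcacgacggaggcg
None of the 4 motifs was found in the windows of IER2, IER5, PHLDA1 or ZFP36, and the AP-1 site, present in 6.57% of all windows, was in none of the 10. The cAMP response element was searched only as the exact TGACGTCA. Variants, such as the TCACGTCA in the EGR1 stretch above, were not counted.

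EGR3, a relative of EGR1 that is itself induced by antigen and growth factor signals, read 5.86, 6.59 and 6.34 on the unstimulated arrays and 5.92, 5.93 and 5.81 on the PMA arrays, in replicate order. The PMA arrays lay close together, and the groups overlapped through unstimulated replicate 1. The log2 fold change was −0.38 ± 0.17 (n = 3 per group, adjusted p = 0.163, 95% interval −0.78 to 0.03). Without unstimulated replicate 1 it was −0.58 ± 0.11 with an adjusted p of 0.00962, so the call depended on that array. EGR3 was dimmer than most genes, with 37.7% of genes below its mean level.

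Relatives and corepressors of the EGR factors each changed by less than 2-fold. NAB2, a corepressor of EGR proteins, rose from 7.71 ± 0.43 to 8.43 ± 0.20 (mean ± SD, n = 3 each), a log2 fold change of 0.72 ± 0.21 (adjusted p = 0.0420), and lost its call without unstimulated replicate 3, PMA replicate 1 or PMA replicate 2, with quantile normalization repeated and with cyclic loess. Its partner NAB1 was 0.47 ± 0.18 (adjusted p = 0.0912, and past the threshold without unstimulated replicate 3), the Wilms tumour factor WT1 was −0.19 ± 0.16 (0.482) and EGR4 was 0.03 ± 0.10 (0.856). By limma 1 of these 4 genes was higher and none lower, where 13.2% of all genes passed in each direction.

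Upstream of the early genes, 3 of 6 measured members of the SRF group rose and 1 fell, with a median log2 fold change of 0.31. Over all genes 13.2% passed in each direction. The ternary complex factor ELK3 (0.53 ± 0.09) kept its call without any single array. The coactivator MRTFB (0.59 ± 0.16) and ELK1 (0.37 ± 0.10) each lost theirs without any of 5 arrays, all but PMA replicate 3. In each of those 5 fits only 1 of the group was higher. CREB1 fell (−0.37 ± 0.09), a call lost without unstimulated replicate 3 or PMA replicate 1. SRF itself was −0.08 ± 0.10 (adjusted p = 0.657) and ELK4 0.24 ± 0.08 (0.0775). Of 9 measured ERK and p38 kinases, 6 rose and none fell, with a median of 0.55. The share over all genes was the same 13.2% in each direction. The ribosomal S6 kinases RPS6KA2 (1.92 ± 0.28), RPS6KA3 (1.09 ± 0.14) and RPS6KA1 (0.98 ± 0.12) and the ERK activator MAP2K1 (1.00 ± 0.11) led, each with its call kept without any single array. MAP2K2 (0.32 ± 0.15, adjusted p = 0.163) and MAPK3, which encodes ERK1 (0.21 ± 0.15, 0.377), did not pass, although MAPK3 did without PMA replicate 3.

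Of 11 measured genes known as EGR1 targets in various cells, 8 rose and none fell. Over all genes 13.2% passed in each direction. The median log2 fold change was 1.60 for the 11 genes against −0.03 for all genes. Fibronectin FN1 (6.61 ± 0.29), the growth factor PDGFA (4.46 ± 0.31), the adhesion molecule ICAM1 (4.22 ± 0.29) and thrombospondin THBS1 (3.51 ± 0.15) changed most. The growth factors VEGFA (1.28 ± 0.69, adjusted p = 0.232) and PDGFB (0.10 ± 0.09, 0.497) did not pass. Without PMA replicate 3, where it read 8.78 against 11.08 and 11.24 on the other PMA arrays, VEGFA passed at 2.07 ± 0.43 (adjusted p = 0.00867). Each of these genes is also known to answer to other factors, and EGR1 binding was not measured.

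The IER genes went separate ways. IER2, a nuclear protein induced by growth factors, read 6.52, 7.64 and 7.47 on unstimulated replicates 1, 2 and 3 and 7.47, 7.51 and 7.51 on the PMA arrays. Apart from unstimulated replicate 1, the arrays lay within a narrow band. The log2 fold change was 0.29 ± 0.26 (adjusted p = 0.499, 95% interval −0.32 to 0.90), and without unstimulated replicate 1 its sign turned, to −0.06 ± 0.10 (adjusted p = 0.738, interval −0.29 to 0.18). IER5, related to IER2 and known to act with the heat shock factor HSF1, read 7.85, 8.04 and 7.91 and then 7.73, 7.82 and 8.01 with PMA. These groups overlapped as well, and the log2 fold change was −0.08 ± 0.11 (adjusted p = 0.654, 95% interval −0.33 to 0.17), which leaves out a 2-fold change in either direction.

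IER3, a stress-induced regulator of cell survival and a known NF-kappaB target, read 6.73, 6.65 and 6.80 on the unstimulated arrays and 10.18, 10.54 and 8.73 on the PMA arrays. All PMA arrays were higher, with replicate 3 the lowest of them by over 1. The mean rose from 6.73 ± 0.07 to 9.82 ± 0.96 (SD, n = 3 each), an 8.51-fold rise (log2 fold change 3.09 ± 0.41, adjusted p = 0.00121). Without PMA replicate 3 the estimate was 3.63 ± 0.13, or 12.4-fold. Its other 2 probe sets held the same values as each other and gave 2.80.

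PHLDA1, a pleckstrin homology-like protein linked to cell survival and growth factor signalling, rose most of the 9 genes and ranked 52 among all 18417 by size of change. It read 5.85, 6.90 and 6.64 on the unstimulated arrays and 10.81, 10.79 and 10.54 on the PMA arrays, with a wide gap between groups. The mean went from 6.46 ± 0.55 to 10.71 ± 0.15 (SD, n = 3 each), a 19-fold rise (log2 fold change 4.25 ± 0.25, adjusted p = 2.57e-05). Unstimulated replicate 1 was the lowest array, and without it the rise was 15.4-fold (3.95 ± 0.13, adjusted p = 1.08e-05). The relatives of PHLDA1 and IER5 rose by less: PHLDA3 by 0.67 ± 0.17, PHLDA2 by 0.55 ± 0.11 and IER5L by 0.50 ± 0.11, each past the threshold. PHLDA3 lost its call without unstimulated replicate 1, unstimulated replicate 2 or PMA replicate 2.

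The 3 ZFP36 genes split. ZFP36, which encodes tristetraprolin, read 8.33, 9.13 and 9.10 on the unstimulated arrays and 7.37, 7.34 and 7.26 on the PMA arrays. All PMA arrays lay below all unstimulated ones and within a narrow band. The mean fell from 8.85 ± 0.45 to 7.32 ± 0.05 (SD, n = 3 each), a 2.88-fold fall (log2 fold change −1.53 ± 0.21, adjusted p = 0.00136). Leaving out unstimulated replicate 1, which was the nearest to the PMA arrays, made the fall 3.46-fold (−1.79 ± 0.09, adjusted p = 4.52e-05).

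ZFP36L2 changed the same way as ZFP36. It was among the brightest genes, with 97% of genes below its mean level, and read 11.58, 11.62 and 11.47 on the unstimulated arrays and 9.89, 9.77 and 9.35 on the PMA arrays. The unstimulated arrays agreed closely here, replicate 1 included. The mean fell from 11.56 ± 0.08 to 9.67 ± 0.29 (SD, n = 3 each), a 3.7-fold fall (log2 fold change −1.89 ± 0.15, adjusted p = 9.23e-05), and −1.88 ± 0.17 without unstimulated replicate 1.

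ZFP36L1 went the other way. It read 7.30, 8.64 and 8.60 on the unstimulated arrays and 11.02, 10.62 and 11.11 on the PMA arrays, and the PMA arrays were higher throughout. The mean rose from 8.18 ± 0.76 to 10.92 ± 0.26 (SD, n = 3 each), a 6.68-fold rise (log2 fold change 2.74 ± 0.34, adjusted p = 0.000989). Of the 9 genes it was the one that unstimulated replicate 1 set furthest apart, and without that array the rise was 4.92-fold (2.30 ± 0.16, adjusted p = 0.000137). The sequence before the start of ZFP36L1 is shown as that of the family member that rose. RefSeq has 2 starts for it, and the cAMP response element in its exact form TGACGTCA was found before 1 of them, at −52 to −45. That exact sequence was in none of the other 9 windows, whereas 1.65% of all windows hold it. Variants of it were not searched. The other 9 windows include that of ZFP36, but ZFP36L2 had no window in the search and was not compared. Positions −110 to −21 of ZFP36L1 (GRCh38.p14, chr14:68793437-68793526, minus strand) are given 5′ to 3′ with the cAMP response element in capitals.
ZFP36L1: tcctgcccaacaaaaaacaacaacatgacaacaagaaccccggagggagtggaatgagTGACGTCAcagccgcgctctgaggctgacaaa
A match of letters is a description of the window, and binding was not measured.

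**Figure D2:**
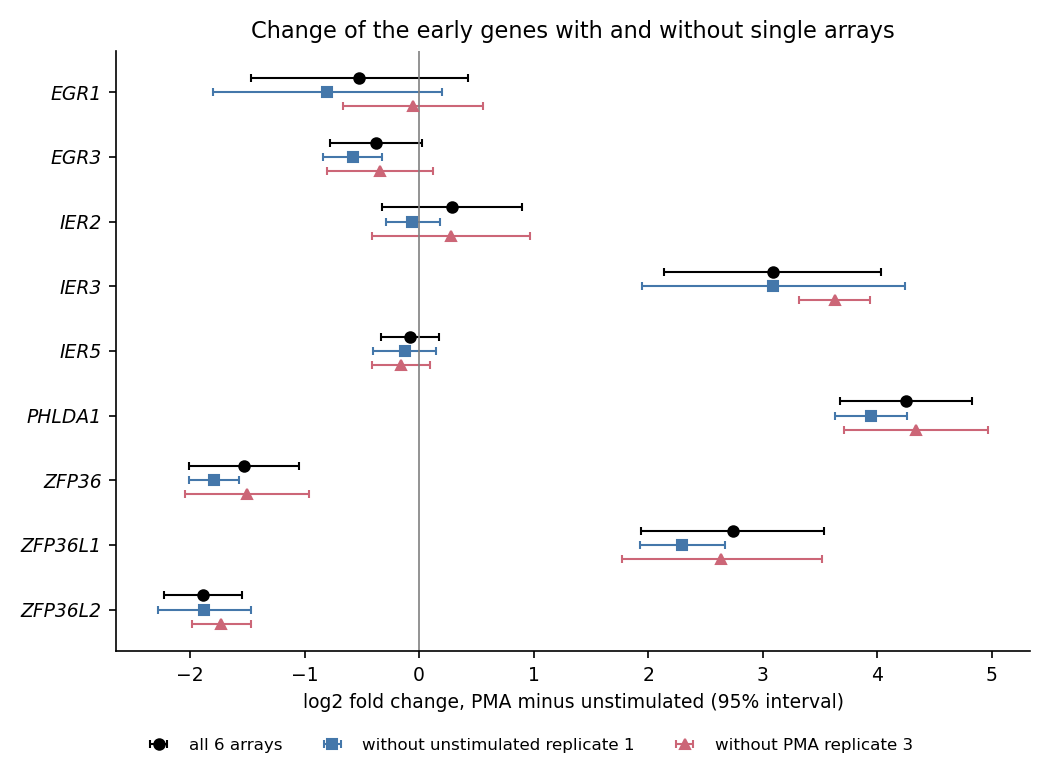
Log2 fold change, PMA minus unstimulated (x axis), of each measured gene with its 95% interval, from all 6 arrays, without unstimulated replicate 1 and without PMA replicate 3. The 5 genes that passed stay on their side of 0 in each case, EGR3 clears 0 without unstimulated replicate 1 (−0.84 to −0.32), and IER2 moves from 0.29 to −0.06.

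mRNAs with AU-rich elements that ZFP36 proteins are known to bind were more often higher than lower. Of 18 measured, 7 rose and 1 fell, with a median log2 fold change of 1.23, where 13.2% of all genes passed in each direction. The cytokine IL1B (6.58 ± 0.31), the chemokine CCL20 (6.55 ± 0.64), the urokinase receptor PLAUR (2.50 ± 0.21) and the kinase PLK3 (2.33 ± 0.32) rose most, and IL23A (−0.62 ± 0.14) fell, a call lost without unstimulated replicate 2, unstimulated replicate 3 or PMA replicate 1. The cyclooxygenase PTGS2 (1.83 ± 0.64, adjusted p = 0.0741) and the chemokine CXCL8 (2.00 ± 0.73, 0.0831) did not pass. TNF, the classic target of tristetraprolin, read 6.30, 9.58 and 9.43 on the unstimulated arrays and 9.43, 9.84 and 7.91 on the PMA arrays, so both groups had an array far below its others (0.62 ± 0.88, adjusted p = 0.683). Its direction turned without unstimulated replicate 1 (−0.44 ± 0.51, adjusted p = 0.600), and it was 1.20 ± 0.87 (0.375) without PMA replicate 3. Values of this list moved with both arrays that stood apart, and its count of genes that rose moved mainly with PMA replicate 3. On unstimulated replicate 1, 16 of the 18 were below the mean of the other unstimulated arrays, beside 8994 of all 18417 genes. On that array 5 of the 18 and 143 of all genes were more than 1 below. Without it 6 rose and 1 fell, and CXCL8 was 1.35 ± 0.66 (adjusted p = 0.192) and PTGS2 1.32 ± 0.63 (0.181). As many rose without unstimulated replicate 2 or 3, and 5 rose without PMA replicate 1 or 2. On PMA replicate 3, 10 of the 18 were more than 1 below the mean of the other PMA arrays, beside 211 of all 18417 genes. Without that array 13 rose and 1 fell, with PTGS2 (adjusted p = 0.0230) and CXCL8 (0.0107) among those that passed.

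Genes of mRNA deadenylation and decay, among them the CCR4-NOT complex that ZFP36 proteins recruit, changed by small amounts. Of 23 measured genes of deadenylation, decapping and AU-rich element binding, 8 fell and none rose. Their median log2 fold change was −0.28, and 13.2% of all genes passed in each direction. With genes below the median level left out, 9 of the list fell, as did 19.1% of the genes then tested. The deadenylase subunits CNOT6L (−0.81 ± 0.20), PAN2 (−0.76 ± 0.13) and PAN3 (−0.69 ± 0.16) and the decapping enzyme DCP2 (−0.67 ± 0.13) changed most, none by 2-fold. PAN2 and DCP2 kept their call without any single array. CNOT6L lost its call without unstimulated replicate 2, unstimulated replicate 3 or PMA replicate 1, and PAN3 without any of these or PMA replicate 2. CNOT10 (−0.30 ± 0.09, adjusted p = 0.0514) and TOB2 (−0.24 ± 0.09, 0.0910) did not pass, CNOT10 passing without unstimulated replicate 2. The number that fell ranged from 4 to 7 when single arrays were left out.

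Among 34 other measured early-response genes, 11 rose and 3 fell, with a median log2 fold change of 0.42, beside 13.2% of all genes in each direction. The kinase SGK1 (3.32 ± 0.23), the growth factor HBEGF (3.10 ± 0.40), the ERK phosphatase DUSP6 (2.38 ± 0.20) and PLK3 rose most. The pseudokinase TRIB1 (1.78 ± 0.62, adjusted p = 0.0719) and PLK2 (2.52 ± 0.88, 0.0735) did not pass, though both did without PMA replicate 3 and PLK2 also without PMA replicate 2. PLK2 read 10.81 on PMA replicate 3 against 7.91 and 6.72 on the other PMA arrays, and was 1.36 ± 0.31 (adjusted p = 0.0132) without it. TRIB1 was 1.00 ± 0.31 (adjusted p = 0.0550) without unstimulated replicate 1 and 2.11 ± 0.63 (0.0417) without PMA replicate 3. FOS, a subunit of AP-1, was 8.33 on unstimulated replicate 1, 9.74 and 9.77 on the other unstimulated arrays and 8.81, 8.65 and 8.42 on the PMA arrays. Its log2 fold change of −0.65 ± 0.36 (adjusted p = 0.246) became −1.13 ± 0.13 (0.00121) without unstimulated replicate 1. In that setting 10 of the list rose and 6 fell, whereas 1 fell without unstimulated replicate 3 or without PMA replicate 1.

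**Figure D3:**
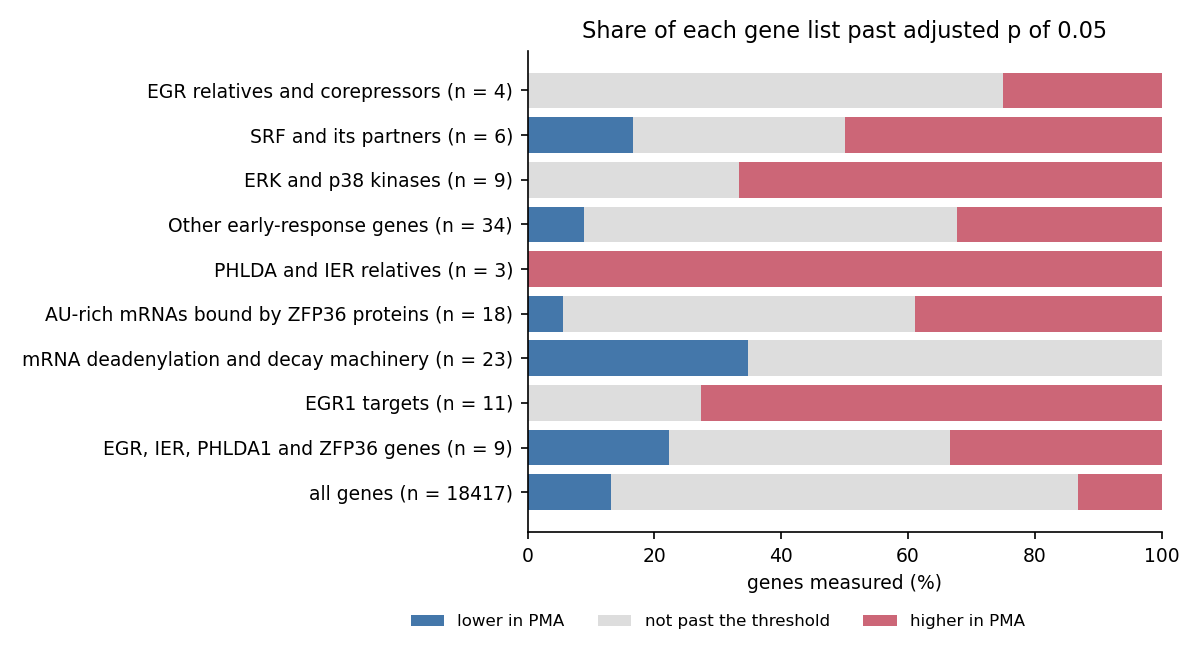
Share of the measured genes of each list (x axis, percent) that was lower, not past an adjusted p of 0.05, or higher in PMA-differentiated cells by limma, with the number measured in brackets. The EGR, IER, PHLDA1 and ZFP36 genes went both ways (3 higher, 2 lower of 9), the EGR1 targets only up (8 of 11), and the decay machinery only down (8 of 23).

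Unstimulated replicate 1 read low for most of these genes. Against the mean of the other unstimulated arrays it was −1.32 for ZFP36L1, −1.04 for IER2, −0.92 for PHLDA1, −0.85 for EGR1, −0.79 for ZFP36 and −0.60 for EGR3. It lay within 0.13 for IER5 (−0.13), ZFP36L2 (0.03) and IER3 (0.01). The gap between unstimulated replicates 2 and 3 was at most 0.30 for any of the 9 genes. The share of all genes with a lower difference on that array was 0.358% for ZFP36L1, 0.706% for IER2, 1.02% for PHLDA1, 1.23% for EGR1 and 1.45% for ZFP36. The median difference was −0.79 for the 9 genes, −0.56 for the 34 other early-response genes and 0.01 for all genes. Of the 34 genes 31 were lower on that array, beside 8994 of all 18417 genes. TNF (−3.20), the AP-1 factor JUN (−2.49) and TRIB1 (−2.32) were furthest below among the genes of all lists; they were picked after their values were seen.

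PMA replicate 3 stood apart in fewer of the 9. Against the mean of the other PMA arrays it was −1.63 for IER3 and −1.40 for EGR1, and within 0.48 for the other 7 genes. With unstimulated replicate 1 left out, 3 of the 9 genes were higher and 3 lower, where 13.3% and 12.5% of all genes passed in these directions, the added gene being EGR3. What set either array apart was not tested.

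**Figure D4:**
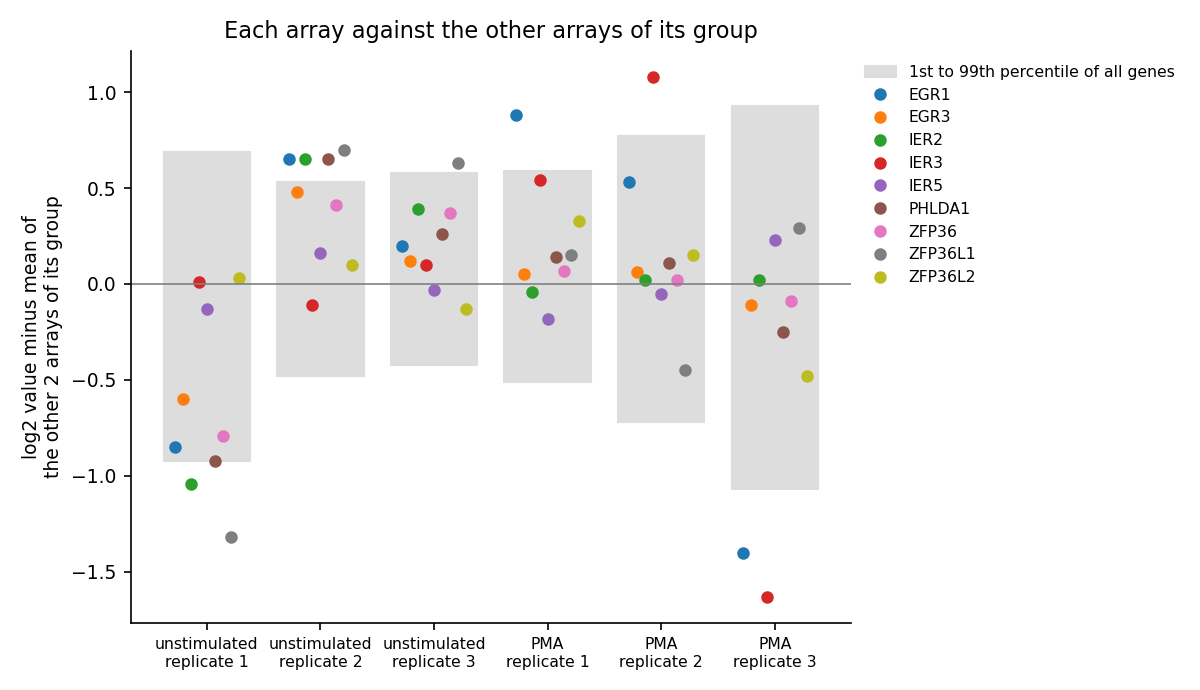
Difference of each array from the mean of the other 2 arrays of its group (y axis, log2), for the 9 measured genes as coloured points. Grey boxes span the 1st to 99th percentile of all genes. On unstimulated replicate 1, 6 of the genes lie between −1.32 and −0.60, and on PMA replicate 3, EGR1 and IER3 lie below the box.

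Genes with the most similar pattern were found by the Euclidean distance between the 6 values of each gene centred on its own mean, over all 18417 genes, as a description. Nearest to EGR1 were NDRG1 (distance 0.51), ATP2B4 (0.52) and KHDRBS2 (0.58), whose values also dipped on unstimulated replicate 1 and PMA replicate 3. Nearest to IER3 were the integrin ITGB8 (0.32), IFITM10 (0.41) and SPOCK1 (0.47), and nearest to PHLDA1 were C5AR2 (0.36), ICAM1 (0.42) and GEM (0.46). EDEM1 (0.21), ADSS1 (0.23) and STAP1 (0.28) were nearest to ZFP36.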

How the data were processed

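Per the submitters' processing notes, the authors used RMA and Partek, with versions not given in the sources used here. They deposited log2 values, 1 per probe set and array (33297 probe sets, 6 single-channel Affymetrix arrays). RMA subtracts background, equalises distributions and summarises probes, which shrinks changes near background. Gene names came from the platform annotation. Of 19460 with a single symbol, 19429 were updated by gene ID to RefSeq GRCh38.p14, and the brightest by mean over 6 arrays stood for a gene. Groups came from the titles. The fit used limma 3.58.1 and R 4.3.3 (lmFit, eBayes, group only, 7.71 total degrees of freedom), two-sided, with Benjamini-Hochberg adjustment over 18417 genes and a threshold of 0.05. The median standard error was 0.115. Precision is limited by the number of arrays. The steps were tested on simulated data.

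The 10 genes and the lists were chosen with earlier results of these data known. Named were all members, for each list the up to 4 largest changes past the threshold and up to 2 with the smallest p not past it, and EGR4, NAB1, NAB2, SRF, FOS and TNF. No set test was run. Alternatives covered normalization, dim genes, probe set, variance model, replicate block, threshold and each array left out. Figures were drawn with matplotlib 3.10.9.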

Additional observations from a re-analysis of the deposited data

How the results depend on the processing

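Of 188 log2 fold changes of the 9 genes recomputed under the alternatives, 183 kept their direction and their side of the threshold, including all for IER3, PHLDA1, ZFP36, ZFP36L1, ZFP36L2, EGR1 and IER5. Much of that count was fixed in advance. Leaving out dim genes, testing every probe set, the variance models, the replicate block and stricter thresholds keep the estimate by construction. Probe set choice could matter only for IER3, which alone had several. A gene not past 0.05 could not pass a stricter threshold. EGR3 passed with array quality weights (−0.45, adjusted p = 0.0296) and without unstimulated replicate 1 and PMA replicate 3 together (−0.54, 0.00523). With single arrays left out it ran from −0.58 to −0.22. IER2 turned to −0.06 without unstimulated replicate 1, alone or with PMA replicate 3, and ran from −0.06 to 0.51 with single arrays left out. The filter that dropped genes below the median left out EGR3. Counts over all genes, 2431 higher and 2423 lower, became 1385 and 1458 when each gene's own variance was used alone, 1509 and 1315 at an adjusted p of 0.01, and 682 and 443 by treat against a 1.5-fold change. With every probe set tested, 3854 were lower. With single arrays left out, 1726 to 2593 were higher and 1597 to 2449 lower. The count of 3 higher and 2 lower among the 9 genes held under all of these except that EGR3 made 3 lower where it passed. Labels do not say whether arrays with the same replicate number were paired. Deviations of same-numbered arrays correlated at 0.18, −0.02 and 0.05, which cannot settle it with 3 arrays per group. The replicate block gave 2409 genes higher and 2317 lower and changed no call of the 9 genes (ZFP36L1 2.74 ± 0.31, adjusted p = 0.00208). NAB2 lost its call under that block. With quantile normalization repeated, 12 genes of the decay machinery fell, against 8. Cyclic loess moved the difference of unstimulated replicate 1 from the other unstimulated arrays to −0.10 for IER3, −0.23 for IER5 and −0.05 for ZFP36L2, and kept it within 1 SD for the other 6 genes. A limit of these arrays is that RMA shrinks changes near background. EGR3 was the dimmest of the 9, with 37.7% of genes below its mean level. Whether its signal was near background was not tested.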
